A study of Mus musculus with 6 samples.

Results

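Collagen chains are the protein strands from which every collagen of the body is wound, and the genes described here are all those whose symbol has the form Col, number, a, number. They were found by matching the RefSeq accession of each probe to a mouse gene symbol, and a probe was kept where all arrays of either group, or of both, had it well above background. Of 44 such genes in the gene table, 43 had a matched probe (63 probes), and 32 genes with 43 probes were kept, out of 14550 named genes and 25221 probes tested in all. By the structure their chains build, 7 of the 32 belong to the fibrillar class, 8 to the basement membrane class and 17 to the other classes. Within this rule no gene was picked by its difference between the groups, but the rule was set with earlier results of these data known.

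The data are 1-colour (Cy3) arrays of total RNA from the ventricles of female C57BL/6N mice that were 21 weeks old. Mice of the sleep fragmented group (3 arrays, SF 1 to SF 3) had their sleep disrupted over 5 weeks, and control mice (3 arrays, Control 1 to Control 3) were not disturbed. Both groups share strain, sex, age and tissue, and no allele or drug is given for either. How sleep was interrupted, and whether an array holds 1 animal or a pool, are not given in the sources used here, so the spread behind each p-value is that of these samples and could be technical. The comparison asks whether collagen genes of the heart differ after chronic sleep fragmentation.

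Collagen chains coil together into a helix, which is trimmed, assembled and crosslinked outside the cell. In the ventricle, fibroblasts make the fibrils of types I, III and V that link the muscle layers and give the wall its stiffness. Cardiomyocytes, vessels and nerves are each wrapped in a basement membrane built on a network of type IV. Type VI forms beaded filaments between the basement membranes and the fibrils, and the fibril-associated collagens sit on the fibrils' surface. In ventricle as a whole, fewer cells of a type and less RNA per cell cannot be told apart.

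Of 39429 probes, 23332 (59.2%, on SF 1) to 28622 (72.6%) gave a signal well above background. SF 1 was also the dimmest array, with 127 at its 75th percentile where the other arrays had 212 to 262. Each group was read in 1 scan of its own, so scan and group cannot be told apart. Levels below are log2 signals minus the array's 75th percentile, and a difference is the sleep fragmented mean minus the control mean with its moderated standard error (SE). The ventricle's own markers were present, since 8 of 8 cardiomyocyte genes were kept, with a summed linear level (relative to the 75th percentile) of 681 to 1174 on sleep fragmented and 688 to 847 on control arrays. The summed level of 5 kept atrial markers of 6 was not even, at 33.7, 330.1 and 63.3 on SF 1 to SF 3 and 16.1, 225.3 and 54.9 on Control 1 to Control 3.

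The collagen genes leaned towards higher means in the sleep fragmented group, and none of them passed the test after adjustment. The sleep fragmented mean was higher for 30 of the 32 genes (93.8%), where it was higher for 58.7% of all named genes. It was lower for 2, Col4a1 and Col8a1, against 41.3%. The median log2 difference was 0.35 over the collagen genes and 0.05 over all named genes. By limma with Benjamini-Hochberg adjustment over all probes, 0 collagen genes were called against a background of 0% (0 of 25221 probes), and the members' adjusted p-values lay between 0.938 and 0.972. At an unadjusted limma p under 0.05, 2 collagen genes were higher against a background of 1.84%, and 0 were lower against 1.13%. In either direction this was 2 of 32 (6.25%), against 2.96% of named genes and 2.91% of all probes. These 2 genes, Col6a5 and Col16a1, were also the only ones of the 32 whose groups did not overlap with all sleep fragmented arrays above all controls, for which the background was 3.65%. In the other direction 0 did so, against 3.97%. At least 1.5-fold differences were seen for 4 genes (Col1a1, Col6a5, Col15a1, Col16a1), all higher in sleep fragmented hearts, against a background of 2.61%, and for 0 lower, against 1%. Without Control 2 the log2 differences of these 4 were 0.40, 0.49, 0.10 and 0.52, all under 1.5-fold. The Col15a1 probe counted here was above background on only 2 of 3 controls. Its other 2 kept probes, which passed on every array, differed by 0.44 and 0.50, both under 1.5-fold. Col6a6, among the 30 higher genes, also passed on only 2 of 3 controls. When every array had to pass, 29 of 31 collagen genes were higher, against 58.3% of named genes.

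**Figure D1:**
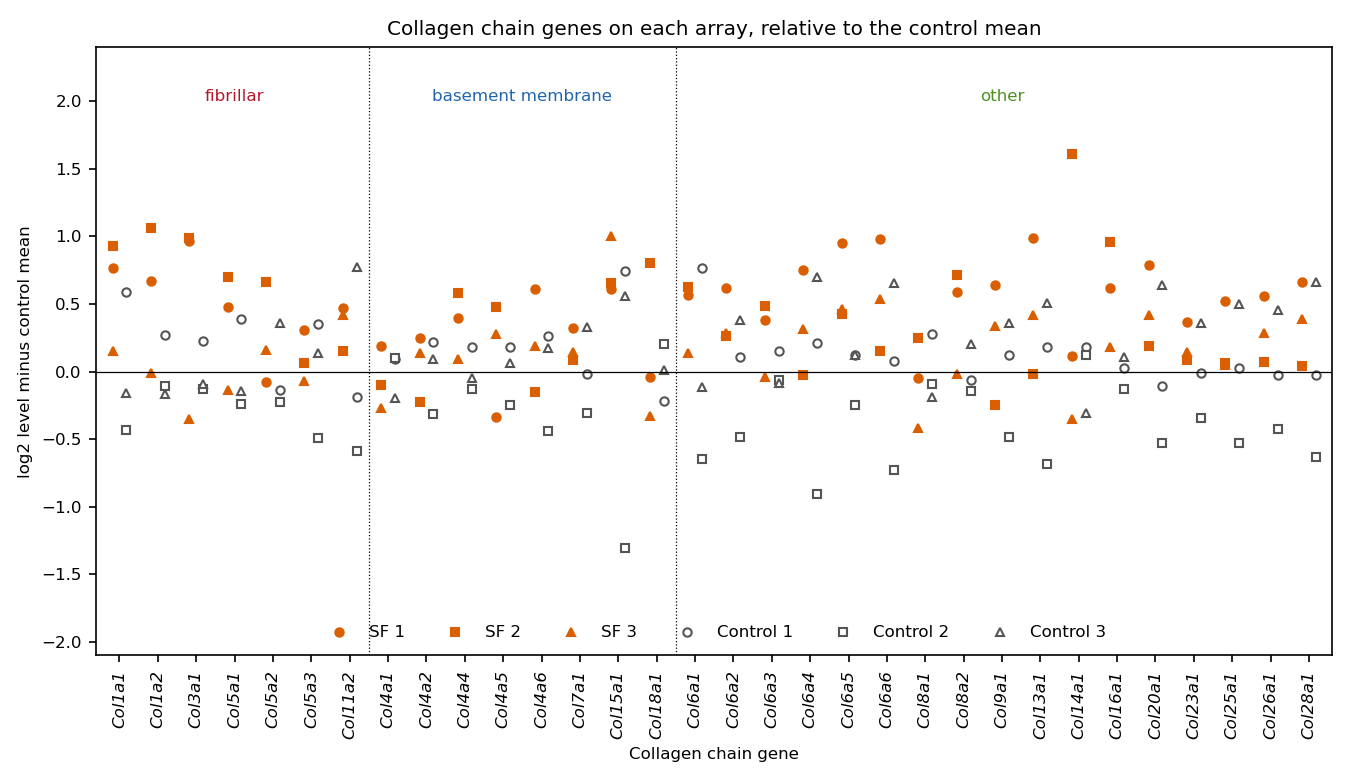
Level of each of the 32 collagen chain genes on each array, as the log2 level minus the gene's control mean (vertical axis), with genes on the horizontal axis in their classes; filled orange symbols are sleep fragmented arrays and open grey symbols are control arrays. Control 2 (open squares) is the lowest array for 24 of the 32 genes (37.1% of named genes). SF 1 is the highest for 13 (40.6%, against 28.4% of named genes) and SF 2 for 12 (37.5%, against 14.2%).

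The fibrillar chains of types I and III, the bulk of cardiac interstitial collagen, had some of the larger differences. Col1a1 encodes the alpha-1 chain of type I, the stiff main fibril of scar and tendon. Its level was 4.74, 4.90 and 4.13 on SF 1 to SF 3 and 4.56, 3.54 and 3.82 on Control 1 to Control 3. SF 1 and SF 2 lay above every control, SF 3 lay below Control 1, and the groups overlapped. The group means were 4.59 ± 0.41 and 3.97 ± 0.53 (SD, n = 3 each), a log2 difference of 0.61 ± 0.30 (SE; 1.53-fold; 95% interval -0.075 to 1.30; limma adjusted p = 0.938). Col1a2 encodes the alpha-2 chain, which joins a pair of alpha-1 chains in each type I helix. It was at 2.89, 3.28 and 2.21 in the sleep fragmented group and at 2.49, 2.11 and 2.05 in the control group. The order of arrays was much as for Col1a1, with SF 3 again inside the control range, and the difference was 0.58 ± 0.28 (1.49-fold; 95% interval -0.060 to 1.21; limma adjusted p = 0.938). Col3a1 encodes the single chain of type III, the finer fibril that is laid down with type I. Its levels were 5.30, 5.32 and 3.98 against 4.55, 4.20 and 4.24. SF 1 and SF 2 were above all controls and SF 3 was the lowest of all 6 arrays, so the difference of 0.54 ± 0.35 had the 95% interval -0.25 to 1.32 (limma adjusted p = 0.938).

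The start regions of Col1a2 and Col3a1 are shown because these genes lie on different chromosomes, had the same arrays on top (SF 1 and SF 2) and have unlike starts. Both are RefSeq windows of assembly GRCm38.p6, from 250 bases before the gene start to 50 after it, on the plus strand, chr6:4505368-4505667 for Col1a2 and chr1:45311288-45311587 for Col3a1. Capitals mark a GC box (GGGCGG, or CCGCCC on the other strand), a CCAAT box (CCAAT, or ATTGG) and a TATA box (TATAAA, or TTTATA).
Col1a2: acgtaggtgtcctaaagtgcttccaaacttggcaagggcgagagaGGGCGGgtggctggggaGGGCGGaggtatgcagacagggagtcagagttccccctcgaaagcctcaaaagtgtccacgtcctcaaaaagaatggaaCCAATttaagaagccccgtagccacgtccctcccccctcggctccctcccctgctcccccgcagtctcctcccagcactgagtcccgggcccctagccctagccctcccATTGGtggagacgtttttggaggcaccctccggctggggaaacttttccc
Col3a1: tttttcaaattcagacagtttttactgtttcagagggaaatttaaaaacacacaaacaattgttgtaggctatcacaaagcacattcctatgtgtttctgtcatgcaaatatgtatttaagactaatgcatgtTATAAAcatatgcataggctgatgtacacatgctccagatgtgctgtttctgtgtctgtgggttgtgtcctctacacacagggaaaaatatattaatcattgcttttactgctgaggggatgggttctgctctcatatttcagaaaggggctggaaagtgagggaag
The Col1a2 window held 2 GC boxes and 2 CCAAT boxes and had a GC content of 61.0%. The Col3a1 window held neither, held 1 TATA box at position -117 from the start that RefSeq gives, and had a GC content of 37.7%. Of the 32 members 28 had a window; Col1a1, Col5a2, Col14a1 and Col26a1 did not. GC boxes were found in 20 of 31 member windows (64.5%) and in 35.7% of 32851 mouse windows of the same length. The mouse windows were not limited to genes kept on these arrays, as the members were, so the shares are not of like sets. CCAAT boxes were found in 11 of 31 (35.5%) against 37.4%, and TATA boxes in 3 of 31 (9.68%) against 13.6%. A match is a stretch of letters only and was not tested as a site.

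The chains of type V, which nucleate fibrils and limit their width, had differences of 0.10 to 0.35. Col5a1, its most common chain, was at 1.23, 1.45 and 0.62 on SF 1 to SF 3 and at 1.14, 0.51 and 0.61 on the controls. The pattern was that of type I, with SF 1 and SF 2 on top and SF 3 among the controls, and the difference was 0.35 ± 0.27. Col5a2 was at -1.29, -0.55 and -1.06 against -1.35, -1.44 and -0.86. Only SF 2 was above all controls for this gene, and the difference was 0.25 ± 0.25. Col5a2 lies beside Col3a1 in the genome, whose difference was 0.54; the gap between them was not tested. Col5a3, a chain with a narrower tissue range, differed by 0.10 ± 0.25. Col11a2, a chain best known from cartilage, differed by 0.35 ± 0.32, and its lowest and highest arrays were both controls (-2.21 on Control 2 and -0.85 on Control 3). Over the 7 fibrillar chains, all 7 had a higher sleep fragmented mean and the median log2 difference was 0.35, which was 0.44 over the 6 chains of types I, III and V. None of the 7 had an unadjusted limma p under 0.05. The other 4 fibrillar genes with a probe (Col2a1, Col11a1, Col24a1, Col27a1) were above background on 0 arrays; Col2a1 is the main collagen of cartilage.

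**Figure D2:**
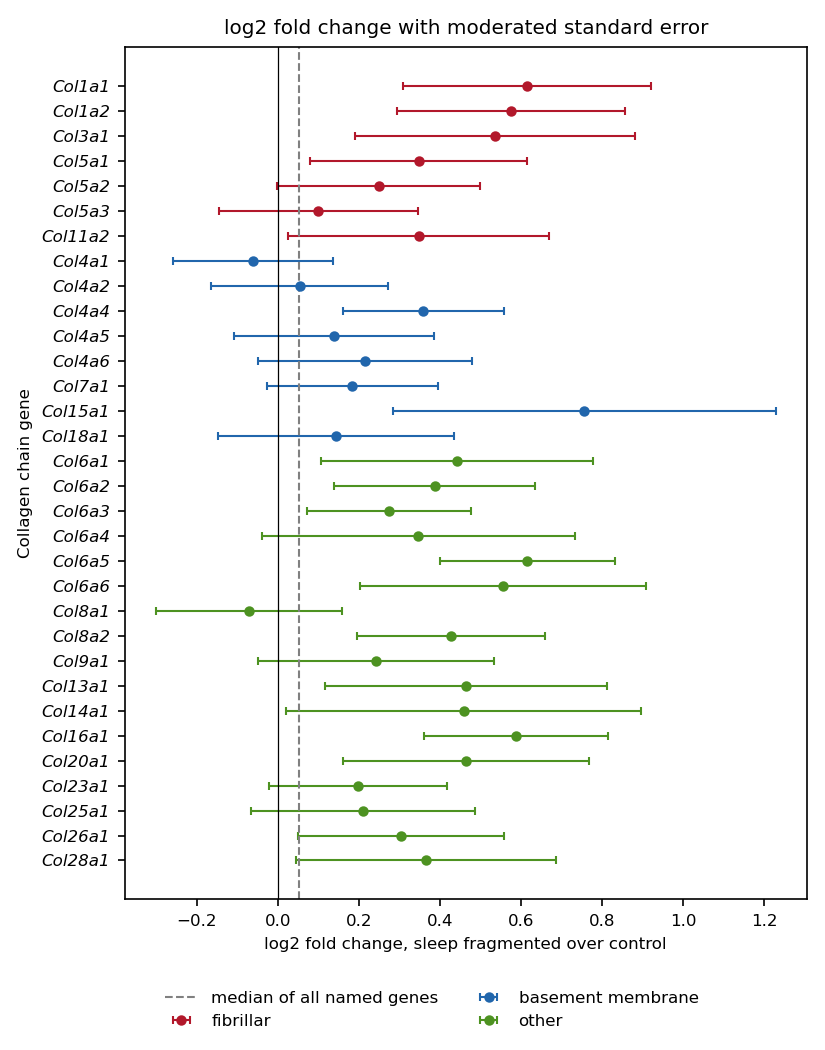
Log2 difference between the group means (sleep fragmented minus control, horizontal axis) of the 32 collagen chain genes, with bars for the moderated standard error and colours for the class (n = 3 arrays per group). The dashed line is the median of all named genes at 0.05; 30 of the 32 points lie above 0, and Col4a1 and Col8a1 lie below it.

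The basement membrane chains had a median log2 difference of 0.16, with 7 of 8 kept genes higher and 0 at an unadjusted limma p under 0.05; without Control 2 the median was 0.022. The main type IV network of vessels and muscle is built of the products of Col4a1 and Col4a2. Col4a1 was at 1.70, 1.41 and 1.24 in the sleep fragmented group and at 1.60, 1.61 and 1.32 in the controls. The groups lay over each other, with the highest and the lowest array both sleep fragmented, and the difference was -0.06 ± 0.20 (limma adjusted p = 0.969; 95% interval -0.51 to 0.39). Col4a2 was at -0.35, -0.83 and -0.46 against -0.38, -0.91 and -0.51. Each sleep fragmented array was close to the control array of the same replicate number, and the difference was 0.05 ± 0.22 (limma adjusted p = 0.972; 95% interval -0.44 to 0.55).

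Col4a1 and Col4a2 are transcribed away from each other from a shared start region, and their windows are shown because both genes had differences near 0. In GRCm38.p6 the Col4a1 window is chr8:11312777-11313076 on the minus strand and the Col4a2 window is chr8:11312555-11312854 on the plus strand, both printed 5′ to 3′ on their own strand with the same motifs in capitals.
Col4a1: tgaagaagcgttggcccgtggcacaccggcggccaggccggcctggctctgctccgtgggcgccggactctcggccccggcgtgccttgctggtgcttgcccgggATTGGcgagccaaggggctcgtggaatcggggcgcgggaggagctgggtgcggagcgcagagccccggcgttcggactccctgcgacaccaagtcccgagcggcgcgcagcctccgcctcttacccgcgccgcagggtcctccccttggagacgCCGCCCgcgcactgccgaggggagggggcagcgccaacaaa
Col4a2: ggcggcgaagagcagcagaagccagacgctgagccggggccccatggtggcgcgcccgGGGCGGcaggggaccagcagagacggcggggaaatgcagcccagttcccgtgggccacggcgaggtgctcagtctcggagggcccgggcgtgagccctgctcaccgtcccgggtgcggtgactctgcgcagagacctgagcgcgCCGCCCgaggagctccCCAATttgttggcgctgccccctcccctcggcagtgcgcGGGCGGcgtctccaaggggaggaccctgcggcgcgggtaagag
The windows share 78 bases, chr8:11312777-11312854, which are the same stretch of the genome read from opposite strands. The Col4a1 window held 1 GC box and 1 CCAAT box and the Col4a2 window 3 GC boxes and 1 CCAAT box, with GC contents of 74.0% and 73.7%. The GC box of Col4a1 lies in the shared stretch and is also 1 of the 3 of Col4a2.

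The remaining type IV chains form the networks of kidney, lung and other special membranes. Col4a4 differed by 0.36 ± 0.20, Col4a5 by 0.14 ± 0.25 and Col4a6 by 0.22 ± 0.26, and their groups overlapped. Col4a3, the neighbour of Col4a4, was above background on 0 arrays. Over the 5 kept type IV chains the median was 0.14. Col7a1, the anchoring fibril chain of skin, differed by 0.18 ± 0.21.

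Col15a1 and Col18a1 encode the multiplexins, collagens at the outer face of basement membranes, and the end of the Col18a1 product is released as endostatin. Col15a1 was at -1.68, -1.64 and -1.29 on SF 1 to SF 3 and at -1.55, -3.60 and -1.73 on the controls. Control 2 alone was far below the rest and was not above background for this probe, which was measured on 2 of 3 controls. The measured difference of 0.76 ± 0.47 thus includes 1 control value below background, and without Control 2 it was 0.10. The other 2 kept probes of Col15a1, both above background on every array, differed by 0.44 and 0.50. Col18a1 was at -1.01, -0.17 and -1.29 against -1.19, -0.76 and -0.95. SF 2 was the highest and SF 3 the lowest array, and the difference was 0.14 ± 0.29.

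Type VI, whose chains form the beaded filaments around cardiomyocytes and fibroblasts, had 6 of 6 genes kept and 6 of 6 higher, with a median of 0.41. Set against the control means, the type VI median was 0.68, 0.34 and 0.30 on SF 1 to SF 3. It was 0.14, -0.57 and 0.25 on Control 1 to Control 3, so Control 2 lay far below the other arrays. The main chains of type VI are the products of Col6a1, Col6a2 and Col6a3. Col6a1 was at 1.34, 1.40 and 0.91 in the sleep fragmented group and at 1.54, 0.13 and 0.66 in the controls. Control 1 was the highest array and Control 2 the lowest, so the controls spanned all sleep fragmented arrays, and the difference was 0.44 ± 0.34 (95% interval -0.32 to 1.20). It was 0.12 without Control 2 and 0.82 without Control 1. Col6a2 was at 0.08, -0.28 and -0.26 against -0.43, -1.02 and -0.16. Control 3 lay above SF 2 and SF 3, and the difference was 0.39 ± 0.25. Col6a3 was at 0.88, 0.98 and 0.45 against 0.65, 0.43 and 0.41. SF 1 and SF 2 lay above all controls, SF 3 lay below Control 1, and the difference was 0.27 ± 0.20. Col6a1 and Col6a2 are neighbours in the genome.

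The other 3 type VI genes, Col6a4, Col6a5 and Col6a6, lie side by side, and their products can take the place of the alpha-3 chain. All 3 were dim in these hearts. Col6a5 was at -1.81, -2.34 and -2.30 on SF 1 to SF 3 and at -2.64, -3.01 and -2.64 on the controls. Every sleep fragmented array was above every control. The means were -2.15 ± 0.29 and -2.76 ± 0.21 (SD, n = 3 each), a difference of 0.62 ± 0.22 (1.53-fold; 95% interval 0.13 to 1.1), which did not pass after adjustment (limma adjusted p = 0.938). It lay between 0.34 and 0.71 over the settings tried. The other Col6a5 probe was above background on 1 array of each group and was not kept, and its groups overlapped. Col6a4 differed by 0.35 ± 0.39 and Col6a6 by 0.56 ± 0.35. Col6a6 was just inside the background rule, above background on 3 sleep fragmented and 2 control arrays, and Col9a2 was just outside it, above background on 2 arrays of each group.

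Among the fibril-associated chains, which decorate fibrils and set their spacing, Col16a1 stood apart from its control group. It was at -0.24, 0.10 and -0.68 on SF 1 to SF 3 and at -0.84, -0.99 and -0.75 on the controls. All 3 sleep fragmented arrays were above all 3 controls, SF 3 by the least, and the controls lay close together. The means were -0.27 ± 0.39 and -0.86 ± 0.12 (SD, n = 3 each), a difference of 0.59 ± 0.23 (1.5-fold; 95% interval 0.075 to 1.1), which did not pass after adjustment (limma adjusted p = 0.938). It lay between 0.31 and 0.79 over the settings tried. Its other 2 kept probes differed by 0.66 and 0.29, and their groups overlapped. The probe with 0.66 was above background on all sleep fragmented arrays but on only 2 of 3 controls. The Col16a1 start window, chr4:130047590-130047889 on the plus strand of GRCm38.p6, is shown because the gene is 1 of the 2 whose groups did not overlap, with the same motifs in capitals.
Col16a1: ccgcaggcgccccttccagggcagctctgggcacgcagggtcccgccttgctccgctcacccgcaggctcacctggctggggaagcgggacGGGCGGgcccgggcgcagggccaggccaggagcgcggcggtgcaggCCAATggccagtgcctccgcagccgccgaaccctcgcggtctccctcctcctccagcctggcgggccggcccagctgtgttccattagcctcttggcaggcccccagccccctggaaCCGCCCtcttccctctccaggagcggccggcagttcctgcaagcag
It held 2 GC boxes and 1 CCAAT box and had a GC content of 74.3%.

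Col14a1 encodes a chain that binds type I fibrils, and its difference of 0.46 ± 0.44 came with 1 high array. It was at 0.50, 1.99 and 0.03 on SF 1 to SF 3 and at 0.56, 0.51 and 0.07 on the controls. SF 2 stood far above the rest, SF 1 lay within the controls' range and SF 3 just below it. Its second kept probe differed by 0.17 ± 0.21. Col9a1, known from cartilage, differed by 0.24 ± 0.29 and Col20a1 by 0.46 ± 0.30, both with overlap. Col19a1, Col22a1 and Col9a3 were above background on 0 arrays, and Col12a1 had no matched probe.

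The short-chain network collagens of type VIII, found in vessel walls, had differences of both signs. Col8a1 was at 0.48, 0.78 and 0.10 against 0.80, 0.43 and 0.34, a difference of -0.07 ± 0.23. The highest array was a control and the lowest was SF 3. Col8a2 differed by 0.43 ± 0.23. The membrane-spanning chains Col13a1, Col23a1 and Col25a1 differed by 0.46 ± 0.35, 0.20 ± 0.22 and 0.21 ± 0.28. The second kept probe of Col25a1 differed by 0.98 ± 0.49 and was above background on 2 of 3 controls. Col26a1 and Col28a1 differed by 0.30 ± 0.25 and 0.37 ± 0.32. Col10a1, of growth cartilage, and Col17a1, of epithelial attachment, were above background on 0 arrays. Several probes were kept for 9 collagen genes, and in 0 of these did the sign differ between probes.

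Seen by array, SF 1 and SF 2 were the highest for most collagen genes and Control 2 was the lowest. With each gene set against its control mean, the median over the 32 genes was 0.56, 0.26 and 0.15 on SF 1 to SF 3 and 0.14, -0.33 and 0.15 on Control 1 to Control 3. Control 2 was the lowest array for 24 of the 32 genes (75%), and it was the lowest for 37.1% of 14537 named genes with a value on every array. SF 1 lay above all controls for 21 collagen genes (65.6%; 34.8% of the named genes), SF 2 for 13 (40.6%; 19.7%) and SF 3 for 4 (12.5%; 26.0%). SF 3 lay within the control range for 23 of 32 collagen genes and for 8466 of the 14537 named genes. Arrays with the same number sat at the same array position. At number 1 the sleep fragmented array was higher for 26 of 32 genes (57.7% of named genes), at number 2 for 31 (60%) and at number 3 for 12 (48.8%). At every number it was higher for 9 genes, against a background of 17%, and lower for 0, against 11.5%. The median differences at numbers 1 to 3 were 0.36, 0.71 and -0.09.

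**Figure D3:**
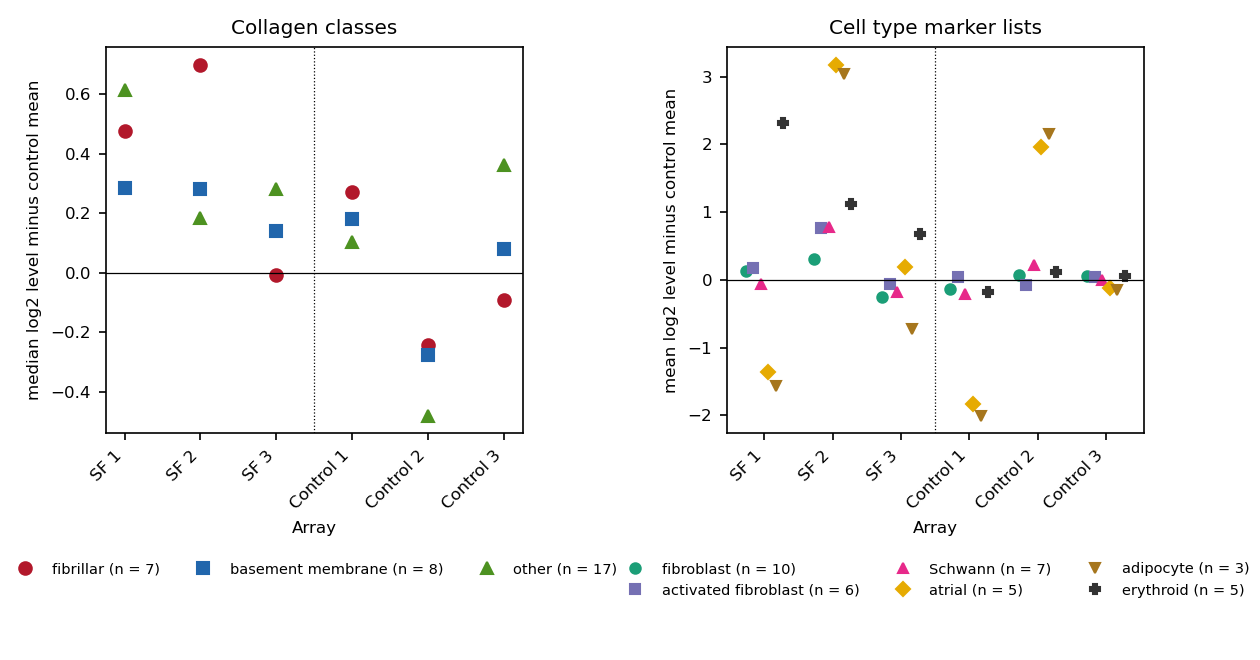
Left, the median over the genes of each collagen class of the log2 level minus the gene's control mean, on each array; right, the mean of the same quantity over kept markers of 6 cell types (n is the number of genes). The fibrillar median is highest on SF 2 (0.70) and lowest on Control 2 (-0.24); atrial and adipocyte markers are high on SF 2 and Control 2, and erythroid markers are high on all sleep fragmented arrays.

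The classes did not share the order of arrays. The fibrillar median was 0.48, 0.70 and -0.01 on SF 1 to SF 3 and 0.27, -0.24 and -0.09 on the controls. The basement membrane median was 0.28, 0.28 and 0.14 against 0.18, -0.28 and 0.08, a narrower span. The median of the other chains was 0.62, 0.19 and 0.28 against 0.10, -0.48 and 0.36. SF 2 was thus highest for the fibrillar chains and SF 1 for the other chains, and Control 2 was lowest for every class.

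Brightness moved with this. At a mean level of -1, a cut chosen after the values were seen, 16 of the 32 genes were dim and 16 brighter. All 16 dim collagen genes were higher, with a median of 0.35, and 79.5% of 5764 dim named genes were higher too, with a median of 0.21. The dim collagen genes had medians of 0.60, 0.12 and 0.32 on SF 1 to SF 3 and 0.01, -0.50 and 0.47 on the controls. Dim named genes had the same order of arrays, at 0.36, 0.04 and 0.22 against 0.00, -0.28 and 0.26. The median of the other chains, given above, had this order too, and the classes were not compared at like brightness. Among the brighter collagen genes 14 of 16 (87.5%) were higher, with a median of 0.31, where 45.1% of 8773 brighter named genes were higher, with a median of -0.02. Their medians by array were 0.43, 0.56 and -0.03 against 0.22, -0.19 and -0.09, and those of the brighter named genes lay between -0.06 and 0.03. The part of brightness in the result was not tested further.

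**Figure D4:**
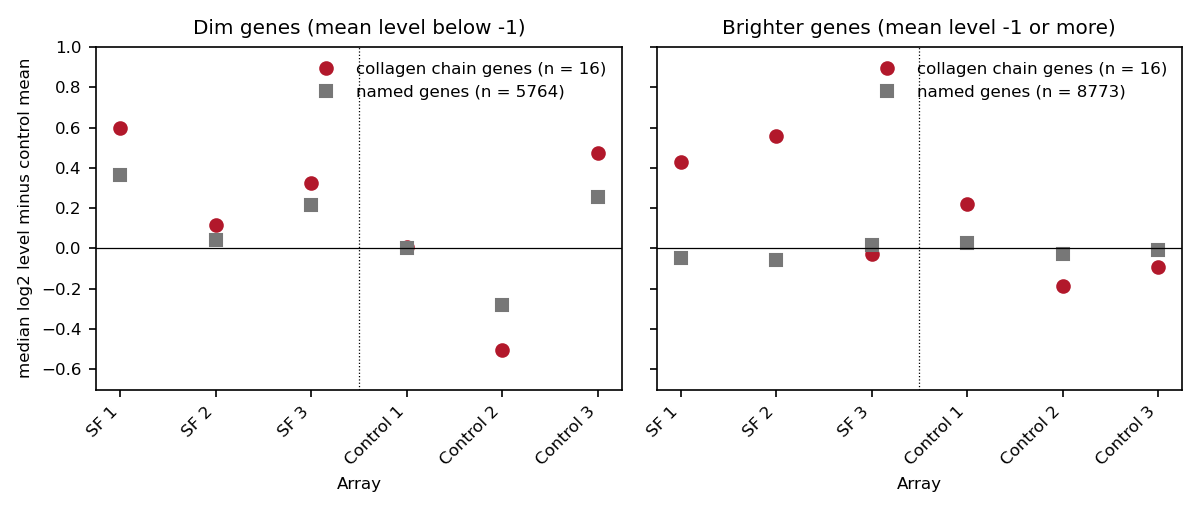
Median log2 level minus the gene's control mean on each array, for dim genes (left) and brighter genes (right), with collagen chain genes in red and all named genes in grey. In the dim genes both follow the same order of arrays, with Control 2 lowest at -0.50 and -0.28; in the brighter genes the collagen medians span -0.19 to 0.56 and those of all named genes stay near 0.

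Markers of other cells also differed between arrays. Fibroblast markers, 10 of 10 kept, had summed levels of 120.6 to 165.5 on sleep fragmented and 135.3 to 139.6 on control arrays. SF 1 and SF 2 lay above the controls and SF 3 below them. The brightest of these markers, Gsn and Dcn, weigh most in this linear sum. Of the 10 markers 7 had a higher sleep fragmented mean, with a median log2 difference of 0.14. Ly6a, Pi16 and Mfap5 were lower, at -0.72, -0.10 and -0.02. Ly6a alone of the 10 had an unadjusted limma p under 0.05. Activated fibroblast markers, 6 of 8 kept with Cthrc1 above background on no array, summed to 19.0 to 29.7 against 15.1 to 24.0, with SF 2 the highest. Schwann markers, 7 of 7 kept, summed to 15.8 on SF 2 and to 8.89 to 10.4 on the other arrays. Epicardial and mesothelial markers, 2 of 6 kept, summed to 1.80 on SF 2 and to 0.49 to 0.76 elsewhere. Atrial and adipocyte markers were high on SF 2 and on Control 2, the array with the lowest collagen medians; the 3 kept adipocyte markers of 6 summed to 28.7 and 14.3 there and to 0.58 to 2.38 on the others, and Lep was above background on no array. Erythroid markers, 5 of 6 kept, summed to 166.4 to 403.4 on sleep fragmented and 107.1 to 121.9 on control arrays, without overlap. Macrophage markers, 5 of 6 kept, summed to 12.2 to 23.2 against 12.7 to 17.1. Endothelial and mural markers, 8 of 8 kept each, summed to 59.7 to 80.1 against 69.8 to 83.8 and to 24.1 to 24.3 against 24.1 to 27.7. Among valve and cartilage markers 4 of 8 were kept, with Hapln1, Matn1 and Matn3 above background on no array, and they summed to 5.16 to 8.82 against 4.71 to 7.10. Tendon markers, 2 of 4 kept with Tnmd and Mkx above background on no array, summed to 0.86 to 1.03 against 0.74 to 1.16. Lung markers, 4 of 5 kept with Sftpa1 above background on no array, summed to 0.89 to 1.36 against 0.64 to 1.27. Their part in the collagen differences was not tested.

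The genes that fold, trim, crosslink and break down collagen had mostly higher sleep fragmented means as well. The counts below stand against 58.7% of named genes higher and 2.96% at an unadjusted limma p under 0.05. Some of the listed genes, Lox and Mmp8 among them, were dim (mean level below -1). Of dim named genes 79.5% were higher, with a median of 0.21, and the lists were not split by brightness. Enzymes and chaperones of folding and hydroxylation, which let the helix form, had 16 of 21 genes higher and a median of 0.15, with 0 at an unadjusted limma p under 0.05. P3h3 and P4ha1, a prolyl 3-hydroxylase and a prolyl 4-hydroxylase subunit, differed by 0.44 ± 0.24 and 0.27 ± 0.18, and the collagen chaperone Serpinh1 by 0.02 ± 0.21. Of the genes for trimming and crosslinking all 10 that were kept, of 12 in the list, were higher, with a median of 0.27. Lox, which starts the crosslinks, was at -1.46, -1.69 and -1.97 on SF 1 to SF 3 and at -2.70, -2.15 and -2.09 on the controls. All sleep fragmented arrays were above all controls, and the difference of 0.61 ± 0.23 did not pass after adjustment (limma adjusted p = 0.938). It was the only one of the 10 with an unadjusted p under 0.05.

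Of the collagen-degrading proteases and their inhibitors, 9 of the 10 kept, of 11 in the list, were higher, with a median of 0.35. Timp3, a matrix-bound inhibitor of metalloproteinases, was at 2.81, 3.24 and 2.66 against 2.19, 2.43 and 2.30. The groups did not overlap, and the difference of 0.60 ± 0.21 did not pass after adjustment (limma adjusted p = 0.938). The collagenase Mmp8 differed by 0.57 ± 0.27. Fibril-binding proteoglycans and glycoproteins had 10 of 10 kept genes higher (12 in the list), with a median of 0.33; Sparc, which binds secreted collagen, differed by 0.46 ± 0.26 and Lum, a fibril-spacing proteoglycan, by 0.42 ± 0.25. Collagen receptors had 7 of 8 kept genes higher (10 in the list), with a median of 0.09, and Itga1 and Itga11 both differed by 0.28 (SE 0.21 and 0.24). Of the TGF-beta pathway, which drives collagen transcription in fibroblasts, 13 of 16 were higher, with a median of 0.13. Tgfb3 was at 0.77, 1.45 and 0.72 against 0.60, 0.32 and 0.48, without overlap, a difference of 0.51 ± 0.23. Its target gene Ccn2 differed by 0.23 ± 0.41. All sleep fragmented arrays were above all controls for 1 of 21 folding genes (Crtap) and 1 of 10 trimming and crosslinking genes (Lox). The same held for 1 of 10 breakdown genes (Timp3), 2 of 16 TGF-beta genes (Tgfb3, Ltbp3) and 0 genes of the other lists. The background for this was 3.65% of named genes. None of the genes of these 6 lists passed after adjustment.

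**Figure D5:**
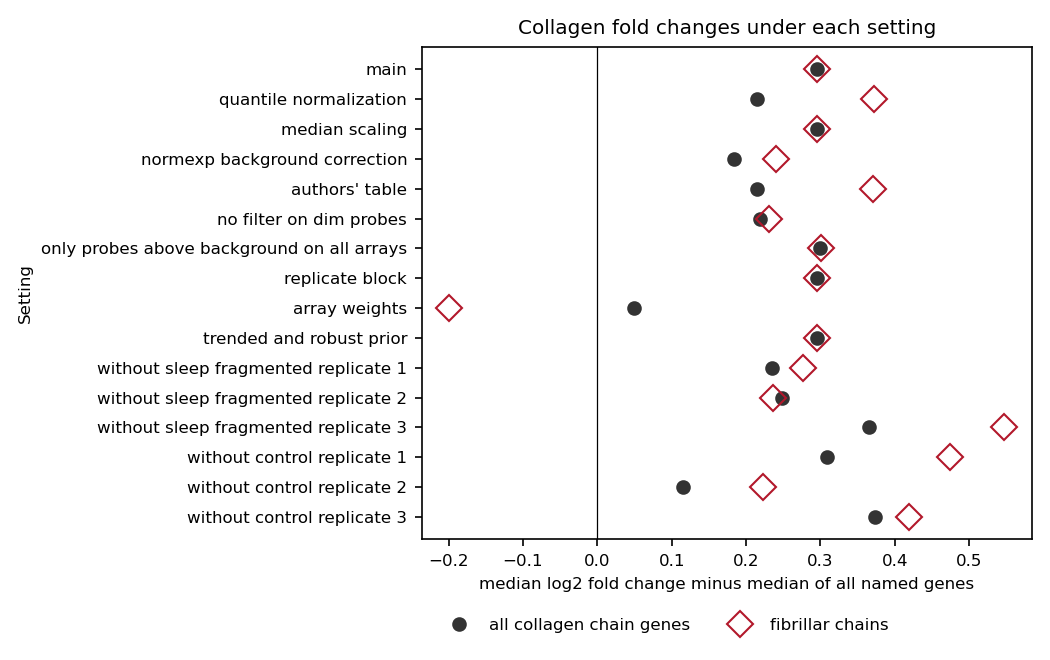
Median log2 difference of the collagen chain genes (filled circles; 32 genes, 43 with no filter and 31 with the filter on all arrays) and of the fibrillar chains among them (open diamonds), each minus the median of all named genes, under each way of processing the data; settings are on the vertical axis. The collagen median lies above that of all named genes under every setting plotted, and the fibrillar median lies below it with array weights only.

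Relative to all genes, the lean was kept under other scalings, was smaller without Control 2 and was close to the background with array weights. With each array's median in place of its 75th percentile, the median of all named genes moved from 0.05 to -0.16. The sleep fragmented mean was then higher for 24 of the 32 collagen genes and for 26.9% of named genes, and 30 collagen genes lay above the median of all genes, as in the main setting. With quantile normalization 28 of 32 were higher against 49.6%. Without Control 2, 25 of 32 were higher against 50.8% of named genes, the median over the 32 genes was 0.12 in place of 0.35, and 0 had an unadjusted limma p under 0.05. Without SF 3 all 32 were higher, against 56.0% of named genes, with a median of 0.41. With array weights, which rested mainly on Control 1 (weight 5.81) and SF 3 (3.10), 20 of 32 were higher against 58.6% of named genes. Of the 32 genes 18 then lay above the median of all genes, the collagen median was 0.10, and the differences of Col1a1, Col3a1 and Col5a1 were -0.15, -0.19 and -0.26.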

How the data were processed

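Cy3-labelled total RNA was hybridised to Agilent arrays (design 026655), 1 sample per array. The deposited scanner intensity values were made with Feature Extraction 11.0.1.1 per the file headers, with background subtracted; version 10.5.1.1 stands in the submitters' processing notes. The deposited flags (spots well above background, saturated, outlying) are other values, 0 or 1. The authors' deposited table of log2 values has a median of 5.53 in each column and matches the arrays with r of 0.998 or more; its scaling stays unknown, and it was used as an alternative only.

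Control spots and outlier spots (180 to 240 per array; 0 saturated) were left out, spots of a probe averaged, and log2 values set against each array's 75th percentile. Probes were named through RefSeq accessions (27234 of 39429 with 1 gene), and the brightest kept probe stood for a gene. Groups were compared with limma 3.58.1 (R 4.3.3; prior degrees of freedom 5.02), two-sided, with Benjamini-Hochberg adjustment, in a fit tested on simulated data. The files held no mean spot signal, so normexp used the median signal. Values on every array are given for the main chains of types I, III, IV, V and VI, Col15a1, Col18a1 and genes at p under 0.05, 1.5-fold or without overlap; Col8a1 and Col14a1 were added after their values were seen. Up to 2 genes of other lists with the smallest p are named. Serpinh1, P4ha1 and Ccn2 were added, as was Crtap for its lack of overlap. The results for 2 single genes are not reported here. The members and lists were chosen with earlier results of these data known. The number of arrays limits the precision.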

Additional observations from a re-analysis of the deposited data

How the results depend on the processing

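With 3 arrays per group the precision is limited, 16 of the 32 collagen genes were dim, and levels of dim probes moved with the array. The count of collagen genes with a higher sleep fragmented mean (30) lay between 20 and 39 (of 43 with no filter) over all settings tried, the lowest count, under array weights, against 58.6% of named genes. The median over all collagen genes (0.35) was 0.10 under array weights and 0.12 without Control 2, that of the fibrillar chains (0.35) 0.23 without Control 2, that of the basement membrane chains (0.16) 0.039 and 0.022, and that of the other chains (0.39) 0.19 and 0.12. The number of probes past the adjusted limma threshold (0) was 3 with normexp, 4 with the replicate block and 53 under array weights; 0 were collagen genes in each. At an unadjusted limma p under 0.05 the 735 probes became 1123 with median scaling, 1531 with no filter, 2018 with the replicate block, and 5995 under array weights; it was 450 to 3014 without 1 array. The 2 collagen genes became 0 with median scaling, 5 with the replicate block (Col1a1, Col1a2, Col6a5, Col6a6, Col16a1; 15.6% of members, 7.26% of named genes), 5 under array weights (15.6%, below the 21.4% of named genes), 4 with a trended and robust prior (12.5%, 3.00%), and 0 to 8 without 1 array: 0 without SF 1 or Control 2, 1 without SF 2 (3.12%, 4.31%), 6 without SF 3 (18.8%, 3.15%) and 8 without Control 3 (25.0%, 10.1%). Arrays of the same number had correlations of deviations of 0.063, 0.554 and 0.214, and share their array position, which gives the same block. Not every one was above 0.1, so the numbers were not taken to pair the samples. Of the 3 sleep fragmented arrays 1 (SF 2) correlated best with its own number. The atrial and adipocyte marker sums, however, had the same order in both groups, lowest at number 1 and highest at number 2. Whether the numbers mark pairs is not given, and the replicate block is the fit that treats them so. A block for the scan could not be fitted. With array weights Col1a1 was at -0.15, Col1a2 at -0.0046, Col3a1 at -0.19, Col4a2 at -0.072, Col5a1 at -0.26, Col6a1 at -0.36 and Col6a3 at -0.046, and the fibrillar median was -0.15. With median scaling Col18a1 was at -0.066, Col4a2 at -0.16 and the basement membrane median at -0.047. Without 1 array Col18a1 ranged from -0.18 (SF 2 left out) to 0.38, Col4a1 from -0.19 to 0.044 (SF 3 left out) and Col4a2 from -0.10 (Control 2 left out; -0.044 without SF 1) to 0.19. These 13 of 224 alternative values, in 9 of 14 genes, changed sign. The causes were not tested.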
